A study of Mus musculus with 12 samples.

Results

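A set of 10 genes of the interleukin-6 (IL-6) family receptor and STAT3 pathway were followed in mouse hepatocytes that carried or lacked extra P16 and were taken before or after partial hepatectomy. The members were the receptor genes Il6ra, Il6st, Lifr, Osmr and Il1r1, the kinase and transcription factor genes Jak1 and Stat3, and the target genes Socs3, Pim1 and Cebpd. They were chosen by name, all 10 were found among the 31053 gene rows of the count table, and all 10 were among the 12257 genes that passed the filter on low counts. Poly(A) RNA had been sequenced from 12 libraries, 1 per C57BL/6J mouse aged 3 months, in 4 groups of 3. GFP mice had received AAV8-TBG-eGFP and P16 mice AAV8-TBG-eGFP-P16 through the tail vein. AAV8 is an adeno-associated virus with a tropism for liver, and the TBG promoter is active in hepatocytes, so all mice carried eGFP and the P16 vector adds the cell cycle inhibitor encoded by Cdkn2a. The groups were GFP at 0 h (before surgery), GFP at 48 h after 70% partial hepatectomy, P16 at 0 h and P16 at 48 h. They include no sham operation, so changes after hepatectomy cannot be told apart from those of surgery alone. The vector was given 1 week before surgery, and the hepatocytes were isolated by collagenase perfusion to a stated purity of at least 95%. In this model P16 is delivered from outside by a virus, which differs from P16 that accumulates with age.

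IL-6 binds the receptor encoded by Il6ra, and the complex then engages gp130. This is the signalling subunit encoded by Il6st that most cytokines of the family share. Leukaemia inhibitory factor uses gp130 with the product of Lifr, and in mice oncostatin M uses gp130 mainly with the product of Osmr. Janus kinases such as JAK1 sit on these receptors and phosphorylate STAT3, which moves to the nucleus and switches on genes that include Socs3, whose product blocks gp130 signalling in return. Il1r1 encodes the signalling receptor for interleukin-1, which acts through NF-kB and joins IL-6 in the acute phase response, the release of plasma proteins by hepatocytes during inflammation. After partial hepatectomy, IL-6 from Kupffer cells, the macrophages of the liver, is known as an early signal to hepatocytes. RNA levels report neither receptor protein nor phosphorylation of STAT3, and neither was measured here.

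The libraries held 14617049 to 25409451 reads in genes. Levels are given as CPM, the reads of a gene relative to all reads in genes of its library after TMM scaling, and a change is a log2 fold change with its standard error (SE). The adjusted p (Benjamini-Hochberg over all genes tested) is that of the quasi-likelihood F test in edgeR, and passing means a value under 0.05. Cdkn2a was at 49.2, 6.38 and 25.1 CPM in the P16 libraries at 0 h and at 12.8, 26.2 and 18.8 CPM at 48 h, while 5 of the 6 GFP libraries had 0 reads and replicate 2 at 48 h had 5. Hepatocyte markers were abundant in every library, with a summed level of 78868 to 122858 CPM over 10 genes. A pair of libraries stood apart in acute phase RNA. Replicate 2 of the GFP mice at 0 h had 6413 CPM of Saa1, a serum amyloid gene, against 71.6 and 445 CPM in the other mice of its group. Replicate 2 of the P16 mice at 48 h had 10217 CPM of Saa1 against 4010 and 2161 CPM. Values or counts of calls without these libraries are given for results that changed. Reads outside annotated genes made up 3.62 to 3.92% of the GFP libraries at 48 h and 4.39 to 9.8% of the P16 libraries at 48 h, and the part of this difference in the results was not tested.

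In bulk RNA, fewer cells of a type and less RNA per cell cannot be told apart, and markers of other liver cells were detected. The summed level of 15 Kupffer cell and macrophage markers was 94.9 to 305 CPM in GFP mice at 0 h, 93.2 to 151 CPM in GFP mice at 48 h, 63.7 to 78.9 CPM in P16 mice at 0 h and 112 to 125 CPM in P16 mice at 48 h. Replicate 2 of the GFP mice at 0 h was the library at 305 CPM. The sum of 12 sinusoidal endothelial markers was 81.3 to 142, 49.8 to 81.1, 60.2 to 70.0 and 56.6 to 88.8 CPM in the same order of groups, and that of 10 stellate cell markers was 67.3 to 93.1, 57.9 to 72.8, 48.9 to 90.5 and 51.3 to 77.6 CPM. The sum of 8 neutrophil markers was low, at 0.598 to 2.23, 0.559 to 0.652, 0.159 to 0.283 and 0.887 to 1.54 CPM in that order. Ly6g and Retnlg had 0 reads in every library, and the other genes of this list had reads in some. The P16 mice at 48 h thus lay above the GFP mice at 48 h and the P16 mice at 0 h in this sum. The part of this difference in the results was not tested.

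Among the members, Lifr gave by far the most RNA and Osmr the least. To compare genes, levels were divided by the length of the exons and are given as CPM per kb. In GFP mice at 0 h Lifr stood at 28.9 ± 6.70 CPM per kb (mean ± SD, n = 3), above Jak1 at 8.48 ± 0.615, Stat3 at 8.17 ± 1.39 and Pim1 at 7.21 ± 2.20 CPM per kb, whose spreads overlapped. Il6st followed at 5.58 ± 0.584 CPM per kb, with Il1r1 at 4.45 ± 2.03 and Socs3 at 4.44 ± 2.26 CPM per kb within its spread. Cebpd at 2.10 ± 1.11 and Il6ra at 1.78 ± 0.461 CPM per kb did not differ beyond their spread, and Osmr stood at 0.0862 ± 0.101 CPM per kb. In P16 mice at 48 h the leading genes were Socs3 at 16.6 ± 6.92, Lifr at 12.6 ± 3.15 and Stat3 at 12.2 ± 1.98 CPM per kb, which overlapped. In that group Il1r1 at 9.24 ± 3.49 CPM per kb stood beside Jak1 at 8.12 ± 0.724 CPM per kb, and Osmr remained the lowest at 0.272 ± 0.158 CPM per kb.

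**Figure D1:**
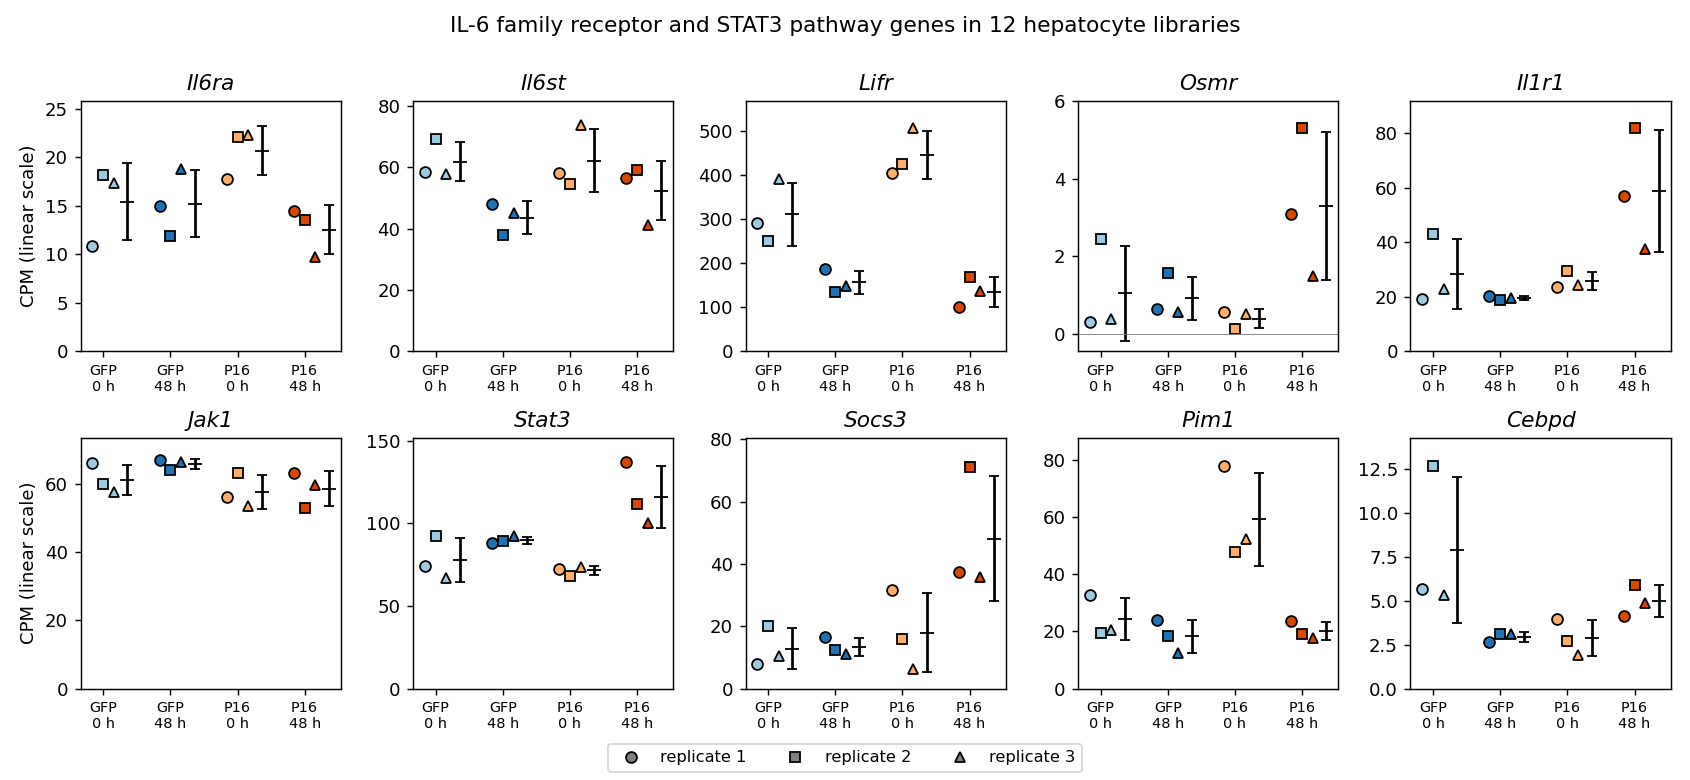
Level of each of the 10 genes in CPM (linear axis, from 0) by group, 1 symbol per mouse with the shape giving the replicate, and a bar for mean ± SD (n = 3). Lifr is lower at 48 h than at 0 h in both arms, Pim1 is highest in P16 mice at 0 h, and Il1r1, Stat3 and Socs3 are highest in P16 mice at 48 h.

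In GFP mice hepatectomy was followed by less RNA of the receptor subunits Lifr and Il6st and of the transcription factor gene Cebpd, while Jak1, Stat3, Socs3 and Il6ra did not pass the test. Of the 10 members, 3 fell and 0 rose. Over all genes tested 33.6% passed in either direction, 16.4% falling and 17.2% rising, so 3 of 10 is near the background. Groups did not overlap for 3 of 10 members, against 47.6% of all genes.

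Lifr (ENSMUSG00000054263, chromosome 15, 7090614 to 7197489, plus strand, GRCm38) was at 292, 251 and 391 CPM in GFP mice at 0 h and at 186, 135 and 148 CPM at 48 h. Each mouse at 48 h lay below each mouse at 0 h, a 1.99-fold fall (log2 fold change -0.99, SE 0.19, edgeR adjusted p = 0.000788). Il6st, the gene of gp130 (ENSMUSG00000021756, chromosome 13, 112464070 to 112510086, plus strand), went from 58.5, 69.4 and 57.8 CPM to 48.1, 37.8 and 45.1 CPM. The groups did not overlap, and the change of -0.50 (SE 0.15, edgeR adjusted p = 0.0165) was a 1.42-fold fall. It no longer passed without replicate 2 of the GFP mice at 0 h (adjusted p = 0.0560) or without replicate 2 at 48 h (adjusted p = 0.0968).

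Cebpd encodes C/EBP delta, a transcription factor induced in the acute phase response (ENSMUSG00000071637, chromosome 16, 15887286 to 15891031, plus strand). Its level was 5.65, 12.7 and 5.31 CPM in GFP mice at 0 h and 2.63, 3.11 and 3.12 CPM at 48 h. The high value belonged to the library with high Saa1, but the other mice at 0 h also lay above all mice at 48 h. The log2 fold change was -1.43 (SE 0.33, edgeR adjusted p = 0.00281), and it was -0.89 (adjusted p = 0.0354) without that library. The macrophage marker sum was highest in the same library, and its part in the level of Cebpd was not tested.

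The remaining members of the GFP comparison differed by less than the test could separate. Stat3 had a log2 fold change of 0.21 (SE 0.14, edgeR adjusted p = 0.265), which became 0.35 (adjusted p = 0.0476) without replicate 2 at 0 h. Socs3 had 0.05 (SE 0.58), Il6ra -0.02 (SE 0.21), Jak1 0.11 (SE 0.11) and Pim1 -0.40 (SE 0.27) as log2 fold changes. Il1r1 had -0.55 (SE 0.32, adjusted p = 0.218). For Osmr the value was -0.26 (SE 0.73, adjusted p = 0.821), and it was 1.41 (adjusted p = 0.179) without replicate 2 at 0 h.

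In P16 mice the response to hepatectomy included 6 of the 10 members. Osmr, Il1r1 and Stat3 rose, and Lifr, Pim1 and Il6ra fell. Over all genes 38.6% passed, 19.6% rising and 19.0% falling. Groups did not overlap for 8 of the 10 members, against 49.5% of all genes. The median log2 fold change of the members was 0.36, against 0.00 over all genes, and in GFP mice it had been -0.33 against -0.01.

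Among the receptors, Lifr was at 405, 426 and 508 CPM in P16 mice at 0 h and at 102, 169 and 136 CPM at 48 h. All mice at 48 h lay far below those at 0 h, a 3.29-fold fall (log2 fold change -1.72, SE 0.20, edgeR adjusted p = 3.26e-06). Il6ra, which encodes the IL-6 binding subunit (ENSMUSG00000027947, chromosome 3, 89864059 to 89913196, minus strand), was at 17.7, 22.1 and 22.2 CPM at 0 h and at 14.4, 13.5 and 9.71 CPM at 48 h. The groups did not overlap, and the fall of 1.65-fold (log2 fold change -0.72, SE 0.21, edgeR adjusted p = 0.0122) was lost without replicate 3 at 48 h (-0.57, adjusted p = 0.0719). Il6st did not pass (log2 fold change -0.25, SE 0.15, adjusted p = 0.207).

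Osmr, the gene of the oncostatin M receptor (ENSMUSG00000022146, chromosome 15, 6813577 to 6874969, minus strand), had 62, 86 and 32 reads in P16 mice at 48 h and 7, 2 and 7 at 0 h. These were 3.10, 5.30 and 1.49 CPM against 0.556, 0.122 and 0.495 CPM, with no overlap. The log2 fold change was 3.09 (SE 0.81, edgeR adjusted p = 0.00622) and passed under all 19 alternative settings, though its size rests on few reads at 0 h. Il1r1, the interleukin-1 receptor gene (ENSMUSG00000026072, chromosome 1, 40225080 to 40317257, plus strand), went from 23.5, 29.5 and 24.4 CPM to 57.0, 81.9 and 37.5 CPM. Each mouse at 48 h lay above each at 0 h, a 2.27-fold rise (log2 fold change 1.19, SE 0.32, edgeR adjusted p = 0.0129) that did not pass without replicate 1 at 0 h (1.12, adjusted p = 0.0543). Of 15 macrophage markers, 3 were called higher (Marco, Timd4 and Tyrobp) and 1 lower (Cd74) between these groups, where 38.6% of all genes passed. Groups did not overlap for 7 higher and 1 lower (49.5% of all genes), and the median log2 fold change of the markers was 1.09. The part of these markers in the rise of Osmr and Il1r1 was not tested.

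Stat3 (ENSMUSG00000004040, chromosome 11, 100885098 to 100939540, minus strand) was at 72.5, 68.5 and 73.8 CPM in P16 mice at 0 h and at 137, 112 and 100 CPM at 48 h. The mice at 48 h were all higher, by 1.62-fold on average (log2 fold change 0.70, SE 0.14, edgeR adjusted p = 0.000536). Jak1 (ENSMUSG00000028530, chromosome 4, 101152367 to 101265282, minus strand) was the steadiest member, at 53.1 to 67.1 CPM over all 12 libraries, with a log2 fold change of 0.03 (SE 0.11, adjusted p = 0.879).

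Of the target genes, Socs3 (ENSMUSG00000053113, chromosome 11, 117966079 to 117970047, minus strand) had 31.5, 16.1 and 6.23 CPM in P16 mice at 0 h and 37.5, 71.2 and 35.7 CPM at 48 h. The groups did not overlap, yet the spread at 0 h left the log2 fold change of 1.43 (SE 0.57) at an edgeR adjusted p of 0.0821. Without replicate 1 at 0 h the change was 2.09 (adjusted p = 0.0237), and it passed in DESeq2 (adjusted p = 0.0415) and limma-voom (adjusted p = 0.00486). Pim1, a serine/threonine kinase gene known as a STAT target (ENSMUSG00000024014, chromosome 17, 29490753 to 29496112, plus strand), moved the other way, from 77.9, 47.8 and 52.2 CPM to 23.6, 19.0 and 17.8 CPM. All mice at 48 h lay below those at 0 h, a 2.94-fold fall (log2 fold change -1.56, SE 0.27, edgeR adjusted p = 0.000559). Cebpd had 3.97, 2.74 and 1.91 CPM at 0 h and 4.10, 5.92 and 4.85 CPM at 48 h, with no overlap but a log2 fold change of 0.79 (SE 0.35) at an adjusted p of 0.0795.

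Before surgery no member passed between the arms in edgeR, where 0.22% of all genes did. At an unadjusted p under 0.05, 3 of 10 members stood apart (13.5% of all genes), and the adjusted test passed 2 members in DESeq2 and 1 in limma-voom. The same 3 members had groups that did not overlap, against 14.4% of all genes, and they were Lifr and Pim1, higher in P16 mice (7.6% of all genes), and Cebpd, lower (6.84%). Pim1 had 32.8, 19.4 and 20.6 CPM in GFP mice and 77.9, 47.8 and 52.2 CPM in P16 mice. All P16 mice lay above all GFP mice, yet the edgeR test did not pass (log2 fold change 1.29, SE 0.27, edgeR adjusted p = 0.0839). That contrast passed in DESeq2 (adjusted p = 0.000284), in limma-voom (adjusted p = 0.0382) and without replicate 1 of the GFP mice at 0 h (adjusted p = 0.0133). For Cebpd the log2 fold change was -1.47 (SE 0.35, edgeR adjusted p = 0.0859). Without the GFP library that had high Saa1 it was -0.94 (adjusted p = 0.320), whereas DESeq2 on all libraries gave an adjusted p of 0.0114. The macrophage marker sums of the arms did not overlap at 0 h. In edgeR 2 of the 15 markers passed, both lower in P16 mice, where 0.22% of all genes passed. At an unadjusted edgeR p under 0.05 there were 14, against 13.5% of all genes, and the median log2 fold change of the markers was -1.67. The part of these markers in the level of Cebpd was not tested. Lifr had a log2 fold change of 0.52 (SE 0.19, edgeR adjusted p = 0.258).

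At 48 h after hepatectomy Il1r1 was higher in P16 than in GFP mice, and it was the only member of the 10 to pass in edgeR, where 2.28% of all genes did. Groups did not overlap for 5 members, against 28.2% of all genes. Il1r1, Stat3, Socs3 and Cebpd were higher in all P16 mice (14.8% of all genes) and Jak1 was lower (13.4%). At an unadjusted p under 0.05 there were 5 members, against 17.5% of all genes. Il1r1 had 20.2, 18.8 and 19.4 CPM in GFP mice and 57.0, 81.9 and 37.5 CPM in P16 mice. The lowest P16 mouse lay well above the narrow GFP group, and the difference was 3.01-fold (log2 fold change 1.59, SE 0.32, edgeR adjusted p = 0.0360). The call was lost in 8 of the 19 alternatives, with adjusted p from 6.67e-06 to 0.150. These were the fit with no filter (0.0570) and the fits without 1 library, namely P16 at 0 h replicate 1 (0.0518) or 3 (0.0570), GFP at 48 h replicate 1 (0.138), 2 (0.124) or 3 (0.150), and P16 at 48 h replicate 1 (0.0502) or 2 (1.28 as log2 fold change, adjusted p = 0.130). Without both libraries that stood apart the difference passed (1.28, adjusted p = 0.000396). Macrophage marker sums overlapped between these groups, and 0 of the 15 markers passed between them in edgeR, with 2 at an unadjusted p under 0.05.

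Socs3 at 48 h had 16.7, 12.5 and 11.1 CPM in GFP mice and 37.5, 71.2 and 35.7 CPM in P16 mice. The groups were well apart, and the difference was 3.57-fold (log2 fold change 1.83, SE 0.58) at an edgeR adjusted p of 0.142. It passed in DESeq2 (adjusted p = 0.0323), in limma-voom (adjusted p = 0.0261) and in edgeR on the libraries of 48 h alone (adjusted p = 0.0233). Stat3 had 87.9, 89.3 and 92.3 CPM against 137, 112 and 100 CPM, without overlap (log2 fold change 0.37, SE 0.14, edgeR adjusted p = 0.151). Osmr had 0.640, 1.56 and 0.559 CPM in GFP mice and overlapped with P16 mice through replicate 3 of the latter (log2 fold change 1.85, SE 0.71, adjusted p = 0.175). Lifr, which had fallen in both arms, had a log2 fold change of -0.21 (SE 0.19, adjusted p = 0.635), and Pim1 one of 0.14 (SE 0.27, adjusted p = 0.845).

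**Figure D2:**
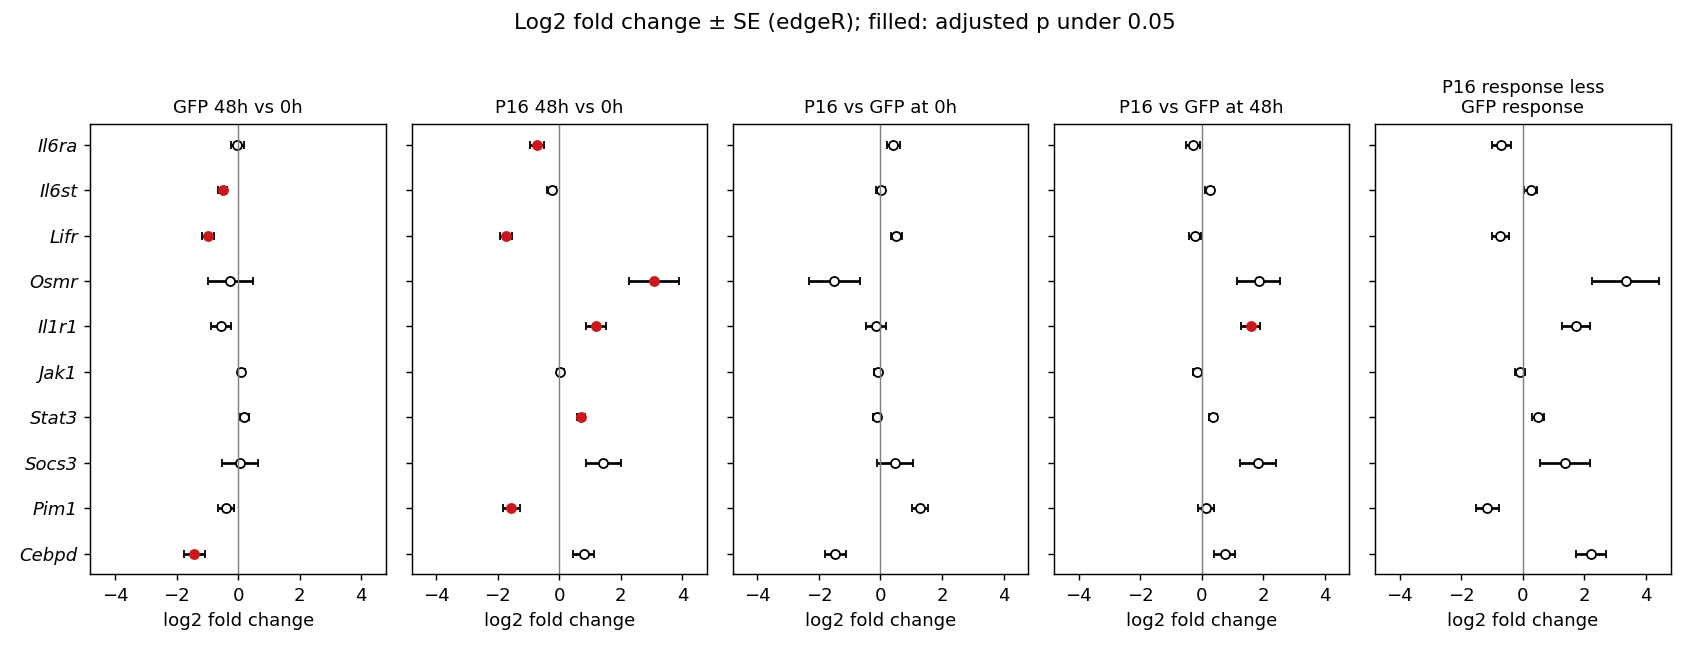
Log2 fold change of each gene with its SE (edgeR) in the 5 contrasts, filled red where the adjusted p was under 0.05. Filled are 3 genes in GFP mice after hepatectomy, 6 in P16 mice, 0 in P16 against GFP mice at 0 h, 1 (Il1r1) in the same contrast at 48 h, and 0 in the difference between the responses.

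The difference between the responses of the arms was tested as an interaction. In edgeR 0 of 10 members passed, as did 0.0979% of all genes. At an unadjusted p under 0.05 there were 7 members with all 12 libraries in the fit, against 11.8% of all genes. The adjusted test passed 2 in DESeq2 (Cebpd and Il1r1) and 0 in limma-voom. The responses therefore were not shown to differ in edgeR, although members passed in P16 mice and not in GFP mice. The interaction of Cebpd was 2.22 on the log2 scale (SE 0.48, edgeR adjusted p = 0.0623), with a response of -1.43 in GFP and 0.79 in P16 mice, and it was 1.55 (adjusted p = 0.220) without both libraries that stood apart. That of Il1r1 was 1.73 (SE 0.45, adjusted p = 0.164), and 0.98 (adjusted p = 0.102) without both. Osmr had 3.35 (SE 1.09, adjusted p = 0.216), Pim1 -1.15 (SE 0.38, adjusted p = 0.239), Lifr -0.73 (SE 0.27, adjusted p = 0.294) and Stat3 0.49 (SE 0.19, adjusted p = 0.312). The Osmr value includes replicate 2 of the GFP mice at 0 h, with 44 reads against 4 and 5 in the other mice. Without that library the GFP response of Osmr turned positive, as given above. The responses share no libraries, but the contrasts between the arms use the same libraries as the responses.

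The members also varied within groups. Replicate 2 of the GFP mice at 0 h was the highest of its group for 7 of 10 members, and for Cebpd, Osmr, Il1r1 and Socs3 it lay more than 1 log2 unit above the mean of the other mice. Replicate 2 of the P16 mice at 48 h was the highest for 6 of 10 members, and replicate 3 of that group was the lowest for 7 of 10. Socs3 had the widest relative spread of the better-covered members, with an SD of 71.1% of the mean in P16 mice at 0 h, while Stat3 varied by 2.51% and Il1r1 by 3.63% in GFP mice at 48 h. Without both libraries that stood apart, the calls were 4 of 10 in GFP mice after hepatectomy (34.2% of all genes), 6 of 10 in P16 mice (38.5%), 0 for the arms before surgery (0.305%), 1 for the arms after it (1.16%) and 0 in the interaction (0.225%). The gene added in GFP mice was Stat3 (log2 fold change 0.35, edgeR adjusted p = 0.0421).

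**Figure D3:**
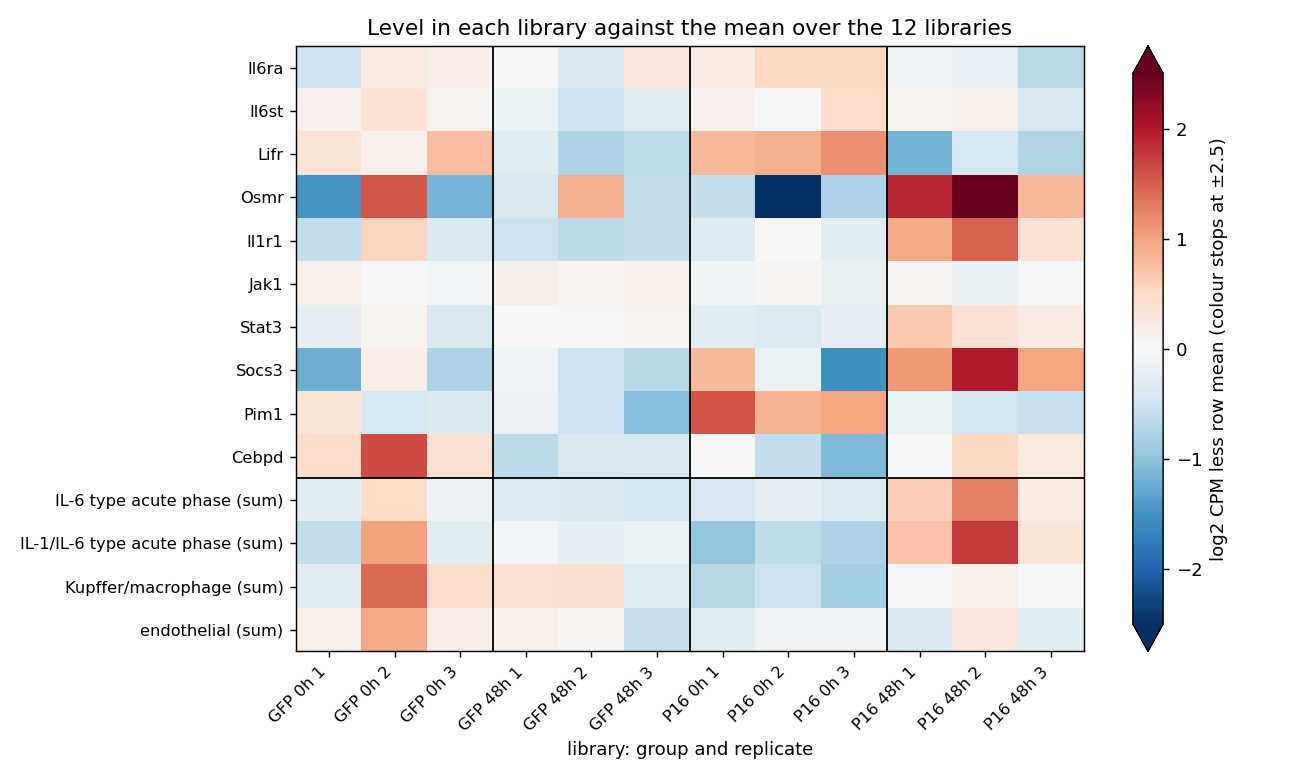
Level of the 10 genes and of 4 summed lists in each library, as log2 CPM less the mean over the 12 libraries (colour stops at ±2.5). Replicate 2 of the GFP mice at 0 h is red for Cebpd, Osmr, the acute phase sums and the macrophage sum, and the P16 libraries at 48 h are red for Osmr, Il1r1, Stat3, Socs3 and the acute phase sums.

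Ratios within a library, formed from CPM per kb, do not depend on library scaling. Osmr was a small fraction of Lifr everywhere, at 0.0009, 0.0087 and 0.0009 in GFP mice at 0 h and 0.0031, 0.0102 and 0.0034 at 48 h. In P16 mice the ratio went from 0.0012, 0.0003 and 0.0009 at 0 h to 0.0272, 0.0278 and 0.0098 at 48 h, so that all P16 mice at 48 h lay above those at 0 h. Socs3 to Stat3 was 0.345, 0.720 and 0.519 in GFP mice at 0 h and 0.626, 0.459 and 0.396 at 48 h. In P16 mice it was 1.43, 0.773 and 0.278 at 0 h and 0.903, 2.10 and 1.17 at 48 h, which overlapped. The ratio of Lifr to Il6st was 5.15, 3.72 and 6.97 in GFP mice at 0 h and 3.98, 3.69 and 3.39 at 48 h, which overlapped. It ranged from 7.07 to 8.03 in P16 mice at 0 h and from 1.85 to 3.39 at 48 h.

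Promoter windows of RefSeq (GRCm38.p6, 250 bases before to 50 after a start) were available for 9 of the 10 members, more than 1 window for some, and Cebpd was not matched. A STAT and a C/EBP motif were searched on both strands. The STAT motif TTCNNNGAA, which reads the same on both strands, is in 8.3% of the 32851 windows, and the C/EBP type motif TTGCNNAA is in 10.8%. Among the members only Socs3 held the STAT motif and only Il1r1 the C/EBP type motif, in 1 window each. These windows are shown because Socs3 and Il1r1 were the members with the largest fold differences between the arms at 48 h among those whose groups did not overlap. The Socs3 window is chr11:117969317-117969616 on the minus strand, with the motif in capitals 154 bases before the RefSeq start, which lies inside the gene as annotated by GENCODE. The Il1r1 window is chr1:40224830-40225129 on the plus strand, with the motif in capitals 133 bases before the start. A match of letters is a description, and binding was not measured.
Socs3: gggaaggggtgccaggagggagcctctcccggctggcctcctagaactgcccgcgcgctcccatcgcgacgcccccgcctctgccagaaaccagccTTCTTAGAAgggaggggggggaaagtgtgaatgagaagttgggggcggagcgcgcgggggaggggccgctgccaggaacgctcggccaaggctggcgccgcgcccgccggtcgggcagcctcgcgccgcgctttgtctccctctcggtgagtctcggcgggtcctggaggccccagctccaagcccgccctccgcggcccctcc
Il1r1: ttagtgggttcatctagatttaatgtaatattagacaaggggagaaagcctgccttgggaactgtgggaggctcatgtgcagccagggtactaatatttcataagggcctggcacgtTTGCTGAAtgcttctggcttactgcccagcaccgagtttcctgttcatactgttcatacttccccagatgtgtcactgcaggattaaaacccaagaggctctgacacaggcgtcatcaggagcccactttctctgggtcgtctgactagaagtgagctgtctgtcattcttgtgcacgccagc

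The ligands of the family were scarce in these hepatocytes. Of 11 ligand genes, 2 passed the filter on low counts and were tested. Osm had 0 reads in all libraries, and Il6 had 5 reads in replicate 2 of the GFP mice at 48 h and 0 reads elsewhere, where 3 reads correspond to 0.0961 to 0.238 CPM. Clcf1, which encodes a ligand of the ciliary neurotrophic factor receptor, rose in GFP mice (log2 fold change 3.09, SE 0.52, edgeR adjusted p = 0.000152) and in P16 mice (3.12, SE 0.53, adjusted p = 0.000132). Among 3 tested receptor and sheddase genes, Adam10, a membrane protease that sheds receptors, rose in GFP mice (0.49, SE 0.18, adjusted p = 0.0418), a call lost without replicate 2 of that arm at 0 h (adjusted p = 0.0672) and in 7 of the 19 alternatives in all.

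Of the 8 other Janus kinase and STAT genes tested, 0 rose and 1 fell in GFP mice after hepatectomy, and 1 rose and 3 fell in P16 mice. These counts, like those of the regulator, C/EBP and PIM, early target and interleukin-1 pathway lists that follow, stand beside 33.6% of all genes called in GFP mice and 38.6% in P16 mice. Nothing is read from a list near those shares. Stat5b, which carries growth hormone signals in liver, fell in both arms (log2 fold change -0.88 in GFP, edgeR adjusted p = 0.000155, and -1.40 in P16 mice, adjusted p = 8.36e-07). Stat5a (-0.82) and Stat6 (-0.55) fell in P16 mice, Stat6 with an adjusted p of 0.0549 once the library of replicate 2 at 48 h was left out. Jak3, a kinase best known from lymphocytes, rose in P16 mice (1.23, SE 0.21, adjusted p = 0.00015) and was higher in P16 than in GFP mice at 48 h (0.86, SE 0.20, adjusted p = 0.0360), a call lost with the P16 library of replicate 2 at 48 h left out (0.65, adjusted p = 0.247). Of 14 SOCS, PIAS and phosphatase genes, which restrain the pathway, 1 fell in GFP mice (Ptpn6, -0.65), 3 rose and 2 fell in P16 mice, and between the arms at 48 h 0 passed in edgeR, limma-voom and DESeq2 (1 had an unadjusted edgeR p under 0.05). The rises in P16 mice were the phosphatase genes Ptpn1 (0.61), Ptpn2 (0.61) and Ptpn11 (0.45), and the falls Pias3 (-1.02) and Ptpn6 (-0.53). Ptpn2 had 0.47 (adjusted p = 0.121) once the library of replicate 2 at 48 h was left out.

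Cebpa, the gene of C/EBP alpha and a regulator of mature hepatocyte genes, fell in both arms, and at 48 h the P16 mice had less of it. It was at 555, 555 and 540 CPM in GFP mice at 0 h and 343, 248 and 293 CPM at 48 h, and at 555, 695 and 584 CPM in P16 mice at 0 h and 202, 210 and 154 CPM at 48 h. The log2 fold change was -0.90 in GFP mice (SE 0.15, edgeR adjusted p = 0.00014) and -1.70 in P16 mice (SE 0.15, adjusted p = 9.64e-08). At 48 h the arms did not overlap for Cebpa (P16 less GFP -0.65, SE 0.15, adjusted p = 0.0355), and the difference was -0.73 (adjusted p = 0.0859) when replicate 2 of the P16 mice was left out. The interaction of Cebpa did not pass (-0.80, SE 0.21, adjusted p = 0.125). In all, 3 of the 6 C/EBP and PIM genes fell in GFP mice (Cebpa, Pim3 and Cebpe), 2 fell in P16 mice (Cebpa and Pim3) and 0 rose.

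Of 12 early STAT3 target genes, 2 rose and 2 fell in GFP mice, and 3 rose and 2 fell in P16 mice. The summed level of these 12 genes did not overlap between the arms before surgery, at 636 to 1205 CPM in P16 against 427 to 546 CPM in GFP mice. At 48 h it was 655 to 805 against 479 to 531 CPM. Much of both gaps lay in Junb and Fos. At 0 h Junb had a mean of 308 CPM in P16 and 120 CPM in GFP mice, and Fos 133 and 50.7 CPM. At 48 h these were 224 and 77.6 CPM, and 155 and 42.4 CPM. Over the list the median log2 fold change between the arms was 0.21 at 0 h and 0.33 at 48 h. Groups did not overlap for 3 genes higher and 1 lower in P16 mice at 0 h (14.4% of all genes). At 48 h they did not overlap for 4 higher and 2 lower (28.2%). Between the arms at 0 h 0 passed in edgeR (0.22% of all genes), 2 in DESeq2 and 1 in limma-voom. An unadjusted edgeR p under 0.05 was found for 6, against 13.5% of all genes. At 48 h 2 passed in edgeR (2.28% of all genes), 6 in DESeq2 and 4 in limma-voom. Ccnd1, the gene of cyclin D1, rose from 2.41, 2.07 and 3.89 CPM to 49.8, 51.8 and 63.8 CPM in GFP mice (log2 fold change 4.32, SE 0.23, edgeR adjusted p = 1.24e-10). In P16 mice it rose from 1.83, 3.34 and 2.62 CPM to 34.4, 25.2 and 28.2 CPM (3.47, SE 0.23, adjusted p = 1.94e-09). At 48 h the P16 mice were all below the GFP mice for Ccnd1 (-0.91, SE 0.19, adjusted p = 0.0223), although without replicate 2 of the P16 mice the adjusted p was 0.138. Bcl3, a partner of NF-kB, had more RNA in P16 than in GFP libraries at 48 h (0.77, SE 0.18, adjusted p = 0.0360), and 0.57 (adjusted p = 0.235) without that library. Bcl6, a transcriptional repressor that STAT factors regulate, fell in GFP mice (-2.26, adjusted p = 0.0105) and in P16 mice (-2.44, adjusted p = 0.00378).

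Acute phase genes answer to IL-6, many of them together with interleukin-1, so their RNA does not measure this pathway alone. Several of them were higher in P16 than in GFP mice at 48 h. Of 11 genes of the IL-6 type, 1 rose and 4 fell in GFP mice after hepatectomy (median log2 fold change -0.29), where 33.6% of all genes passed. In P16 mice 9 rose and 1 fell (0.97), where 38.6% of all genes passed. At 48 h 5 were higher and 0 lower in P16 than in GFP mice (0.95), where 2.28% of all genes passed. The medians over all genes were -0.01, 0.00 and -0.00. Fgb, a fibrinogen chain, had 4437, 5338 and 4703 CPM in GFP mice at 0 h and 3156, 3014 and 2680 CPM at 48 h, against 4464, 4862 and 4733 CPM in P16 mice at 0 h and 6954, 11942 and 5212 CPM at 48 h. The groups at 48 h were separate (1.45, SE 0.22, edgeR adjusted p = 0.00662), and they remained so without replicate 2 of the P16 mice (1.04, adjusted p = 0.0161). Fgg (1.44), Fga (1.24), Lrg1 (1.65) and Cp (0.89) were the other genes higher at 48 h. Hamp, the gene of the iron hormone hepcidin, fell in both arms (-2.38 in GFP, adjusted p = 0.0288, and -2.45 in P16 mice, adjusted p = 0.0224). With the P16 library of replicate 2 at 48 h left out, 2 of these 11 genes passed between the arms (21 genes over all), with a median of 0.71. Without both libraries that stood apart 6 did (1.16% of all genes), also at 0.71. With only replicate 2 of the GFP mice at 0 h left out, 8 passed (665 genes over all) at a median of 0.95. That library is in neither group of this contrast but shares its fit. In the interaction 0 of the 11 passed in edgeR and in limma-voom, and 5 in DESeq2, so edgeR did not show the responses to differ. At an unadjusted edgeR p under 0.05 there were 9, against 11.8% of all genes. Without both libraries 4 passed the interaction in edgeR (0.225% of all genes).

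Of 12 genes that answer to interleukin-1 together with IL-6, 0 rose and 4 fell in GFP mice (median -0.34, 33.6% of all genes passed). In P16 mice 8 rose and 0 fell (1.63, 38.6% of all genes). At 48 h 4 were higher and 0 lower in P16 than in GFP mice (1.26, 2.28% of all genes). The 4 genes higher at 48 h were Lbp (1.29), Saa4 (1.23), Crp (0.94) and the complement gene C3 (0.84). Mean levels in GFP mice went from 94.4 to 29.4 CPM for Lbp, 275 to 116 CPM for Saa4 and 428 to 170 CPM for Crp. In P16 mice the means of these genes went from 70.3 to 72.1, 280 to 273 and 450 to 328 CPM. Lbp, Saa4 and Crp thus had less RNA at 48 h in GFP mice, without a matching rise in P16 mice. Without replicate 2 of the P16 mice 0 of the 12 genes passed between the arms in edgeR, with a median of 0.68. Without both libraries that stood apart 6 did (1.16% of all genes), also at 0.68. With only replicate 2 of the GFP mice at 0 h left out, 6 passed (665 genes over all) at a median of 1.26. That library is in neither group of this contrast but shares its fit. In the interaction 1 of the 12 (C3) passed in edgeR (0.0979% of all genes), 9 in DESeq2 and 0 in limma-voom. All 12 had an unadjusted edgeR p under 0.05, against 11.8% of all genes. Without both libraries 5 passed the interaction in edgeR (0.225% of all genes). In GFP mice the medians depended on the library with high Saa1. Without it alone 2 of 12 genes rose and 4 fell after hepatectomy (median 0.21). In the list of IL-6 type 1 rose and 3 fell (0.02), and 4067 genes passed over all. The P16 library that stood apart is in neither group of this contrast but shares its fit. Without both libraries 6 of 12 genes rose and 4 fell, and in the list of IL-6 type 4 rose and 4 fell. Over all genes 34.2% passed in that fit. Saa1 and Saa2, like Orm1 and Orm2, are near-identical copies, so their separate values are uncertain.

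In 5 of the 11 genes of the IL-6 type with a RefSeq window the STAT motif was present in at least 1 window. It was present in 1 of 9 genes of the interleukin-1 and IL-6 type and in 2 of 10 early STAT3 target genes. The share of 8.3% is one of windows, and a gene can have more than 1, so it is no background for counts of genes. Nothing is read from these counts. The sites of 4 of these genes are shown with 10 bases on each side, as the parts of the acute phase promoters that carry the letters of the motif, which is in capitals. They lie 234 bases before the start in Fga (chr3:83025919-83025927, plus strand), 162 in Fgb (chr3:83050017-83050025, minus strand), 51 in Itih4 (chr14:30886425-30886433, plus strand) and 116 in Steap4 (chr5:7960356-7960364, plus strand). Of the 5 genes, 4 rose and 1 fell after hepatectomy in P16 mice.
Fga: aggcccccatTTCCTGGAAtgtagattcc
Fgb: gactcaatgaTTCGAGGAAccccctgtgt
Itih4: aaacctgcatTTCCGAGAActtgcaccag
Steap4: ggttgaactcTTCCCGGAAactttgcttc

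Il1r1 rose in P16 mice, whereas Il1rap, the gene of its partner chain, fell in both arms. Of 15 other genes of the interleukin-1 pathway, 1 rose and 3 fell in each arm after hepatectomy. Between the arms at 48 h 0 passed in edgeR, DESeq2 and limma-voom, and 4 had an unadjusted p under 0.05. Il1rap, which encodes the accessory chain that the receptor needs to signal, fell from 178, 109 and 157 CPM to 63.3, 50.5 and 57.0 CPM in GFP mice (log2 fold change -1.38, SE 0.16, edgeR adjusted p = 2.15e-06). In P16 mice it fell from 171, 189 and 189 CPM to 69.4, 75.6 and 60.9 CPM (-1.42, SE 0.16, adjusted p = 1.24e-06). Il33, an alarmin of the interleukin-1 family, rose in GFP mice (3.77, SE 0.34, adjusted p = 8.46e-08) and in P16 mice (3.10, SE 0.33, adjusted p = 6.18e-07). Nfkbia, which encodes an inhibitor of NF-kB, fell in both arms (-0.39, adjusted p = 0.0338, and -0.54, adjusted p = 0.00365), and in GFP mice the call was lost without replicate 2 at 0 h (adjusted p = 0.124).

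**Figure D4:**
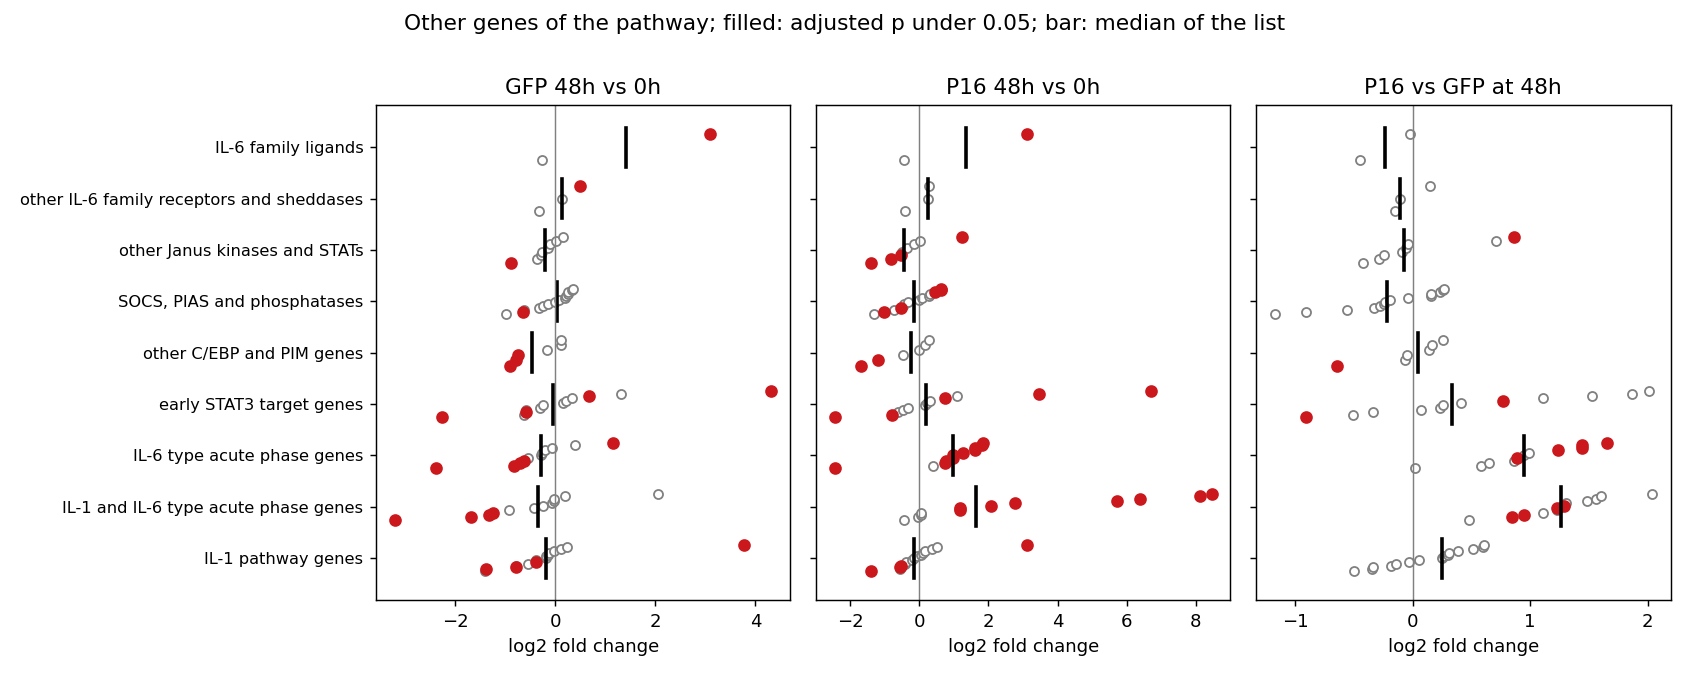
Log2 fold change (linear axis) of each tested gene of 9 pathway lists in 3 contrasts, filled red where the edgeR adjusted p was under 0.05, with a bar at the median of the list. The acute phase lists lie mostly right of 0 in P16 mice after hepatectomy and between the arms at 48 h, with medians of 0.97 and 1.63 in the former and 0.95 and 1.26 in the latter.

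The genes whose pattern over the 12 libraries was nearest to each member were found by the root mean square (RMS) difference of centred log2 CPM among 8659 genes. For Il1r1 they included the fibrinogen gene Fga (RMS difference 0.229) and the protease inhibitor gene Serpina10 (0.233), where the RMS of Il1r1 about its own mean was 0.663. Lifr was nearest to the transporter gene Slc47a1 (0.196, own RMS 0.749), and Stat3 to Etnk1 (0.108, own RMS 0.297). For Socs3 they were Ddit3 (0.484), Nfkbiz (0.497) and Ang (0.570), which left a larger remainder of its own RMS of 0.996. Osmr, with few reads, had no near neighbour, its closest being Dnajc12 at 0.743 against an own RMS of 1.44. These are descriptions over libraries that share the groups.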

How the data were processed

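Hepatocyte poly(A) RNA of 12 mice was sequenced, and groups were taken from the labels. The deposited table holds whole-number read counts per gene, not normalized by the authors, and the file's unit was checked on its values. The submitters' processing notes name STAR 2.5.0c, HTSeq, Trim Galore, Picard and SAMtools, and the build mm10, with settings, annotation and strand not given in the sources used here. Without strand, reads shared with an overlapping gene on the opposite strand are uncertain: Gm26885 covers 14.5% of the exons of Pim1, Spidr 15.0% of Cebpd, Gm42809 2.8% of Il6ra, Stat5a 0.756% of Stat3 and Raver2 0.0553% of Jak1. Rows that name no gene stayed out: reads in no feature were 3.62 to 9.8% and ambiguous reads 4.87 to 8.8% of a library. Positions came from GENCODE vM21 (GRCm38), which held 30934 identifiers, and 200 symbols were restored by identifier.

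Counts were tested in R 4.3.3 with edgeR 4.0.16 (filterByExpr, TMM factors 0.825 to 1.23, robust quasi-likelihood F test, all 12 libraries, 4 group means), adjusted by Benjamini-Hochberg over 12257 genes. The SE is the size of the log2 fold change divided by the square root of F. CPM divides counts by the scaled library size. Replicates were separate mice, and every pair in a group differed beyond counting noise (chi-square over its degrees of freedom at least 14.6). On simulated data for hepatectomy in GFP mice (12042 genes in that step), 90.5% of 200 genes changed 2-fold were recovered, with 7 false calls. The 19 alternatives were DESeq2 1.42.0, limma-voom (limma 3.58.1), other size factors, no filter, a replicate block, the compared libraries alone, each of 12 libraries left out, and both libraries that stood apart left out.

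The members and gene lists were chosen with earlier results of these data known. Named were all members, up to 4 genes of a pathway list with the largest change past the test in a contrast (or the 2 with the lowest p), and the 3 genes nearest in pattern to each member with a mean of at least 5 CPM. Saa1, Osm, Il6, macrophage markers, and list genes beyond 4 or named for their promoter or in counts were named after their values were seen. Sequences are from RefSeq. For Il1r1, 1 further gene near in pattern is not reported here, nor is 1 acute phase promoter site.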

Additional observations from a re-analysis of the deposited data

Results flagged for a closer look

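C3, the central complement gene and a gene of the interleukin-1 and IL-6 type list, responded differently to hepatectomy in the arms by the test of the interaction itself. It stood at 6668 ± 1374 CPM in GFP mice at 0 h and 5649 ± 160 CPM at 48 h, and at 4536 ± 316 CPM in P16 mice at 0 h and 10146 ± 2735 CPM at 48 h (SD, n = 3). The interaction was 1.40 on the log2 scale (SE 0.26, edgeR adjusted p = 0.0471), with a response of -0.24 (adjusted p = 0.346) in GFP mice and 1.16 (adjusted p = 8.33e-05) in P16 mice, higher in 3 of 3. It lost its call in 8 of 18 alternatives, with adjusted p from 4.56e-05 to 0.123. These were limma-voom and the fits without replicate 3 of the GFP mice at 0 h, replicate 1 or 3 of the P16 mice at 0 h, any GFP mouse at 48 h, or replicate 2 of the P16 mice at 48 h.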

How the results depend on the processing

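Of 939 values of the members under alternatives, 900 kept their side of the threshold, 12 lost a call, 27 gained one and 0 reversed; 26 changed sign without a call in either fit. Among 7797 values of list genes, 7447 kept their side, 165 lost a call, 177 gained one and 8 reversed, and 270 changed sign without a call in either fit. Members called between the arms at 0 h (0) became 1 with no filter, 1 with the replicate block, 2 in DESeq2 and 1 in limma-voom, and 0 to 2 with 1 library left out. Between the arms at 48 h the count of 1 became 0 with no filter, 2 in DESeq2, 2 in limma-voom and 3 with the compared libraries alone, and 0 to 1 with 1 library left out. In the interaction the count of 0 became 1 with no filter, 2 with the block and 2 in DESeq2, and 0 to 1 with 1 library left out. Counts over all genes moved further: 27 at 0 h against 160 with no filter, 179 in DESeq2, 17 in limma-voom and 9 with the compared libraries alone, 280 at 48 h against 538, 660, 355 and 752, and 12 in the interaction against 173, 200 and 1 for the settings that could be run. The block gave 150 at 48 h and 44 in the interaction. With 1 library left out the counts were 5 to 148 at 0 h, 10 to 665 at 48 h and 2 to 76 in the interaction, and without both libraries that stood apart they were 38, 145 and 28. The cause of these differences was not tested.

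Without both libraries that stood apart, log2 fold changes after hepatectomy in GFP mice turned positive and passed for Itih3 (0.34), Hpx (0.43), Orm1 (0.48), Saa2 (3.31), Orm2 (2.65) and Saa1 (3.09). Orm2 ranged from -0.997 to 2.66 with 1 library left out, and Cish in P16 mice, at -0.73 with all libraries, from -1.28 to 2.57 (without replicate 1 at 0 h). The labels do not say that replicate numbers pair mice. Deviations from the group means correlated at -0.0479 to 0.0609 for same-numbered mice and at -0.119 to 0.077 for others. With 3 mice per group these values cannot decide whether mice were paired. With the replicate block Pim1 passed in GFP mice after hepatectomy (adjusted p = 0.0468), in the contrast of the arms before surgery (0.000482) and in the interaction (0.0415), as did Il1r1 in the interaction (0.0496). Depth limits Osmr most, with 2 to 86 reads per library. The interaction could not be fitted on the libraries of 1 contrast alone.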
